A study of Rattus norvegicus with 10 samples.

Results

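Eicosanoids are lipid mediators that cells make from arachidonic acid, and the genes of the enzymes that make them were followed here in splenic M2 macrophages of rats with glomerulonephritis given human adipose-derived mesenchymal stem cells (ASCs). The list named 10 genes, of which 8 were in the table of 9003 genes and are described below. They were 3 leukotriene enzymes (*Alox5*, *Alox5ap* and *Lta4h*), 3 prostaglandin enzymes (*Ptgs1*, *Ptgs2* and *Hpgds*) and 2 phospholipases (*Pla2g2d* and *Pla2g4a*). *Ltc4s* and *Ptges* were not analysed here. The rats were young females of the WKY/NCrj strain. Control macrophages came from rats without nephritis (n = 2 libraries), and GN macrophages from rats in which the antibody TF78 against the glomerular basement membrane had induced nephritis, with no ASC treatment (n = 2). EV+ (n = 3) and EV- (n = 3) macrophages both came from nephritic rats that had received ASCs labeled with DiD, a dye of cell membranes. They were separated by flow cytometry into DiD-positive cells, which carried membrane of the ASCs (EV+), and DiD-negative cells (EV-), so both came from rats exposed to the ASCs. All 4 groups were sorted from spleen after enrichment with an antibody against CD11b/c. The replicates were biological according to the study, and p-values measure only the spread between these libraries. The design asks what nephritis and the transfer of ASC-derived extracellular vesicles (EVs) change in these cells.

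Synthesis starts when a phospholipase A2 frees arachidonic acid from membrane phospholipids. From there the pathway divides. In the leukotriene branch, 5-lipoxygenase, encoded by *Alox5*, works with its activating protein, encoded by *Alox5ap*, to make leukotriene A4, which leukotriene A4 hydrolase, encoded by *Lta4h*, turns into the neutrophil attractant leukotriene B4. In the prostanoid branch, the cyclooxygenases encoded by *Ptgs1* (the constitutive form) and *Ptgs2* (the form that inflammatory signals induce) make prostaglandin H2, which terminal synthases convert into prostaglandins or thromboxane. Macrophages can make products of both branches.

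*Alox5*, *Ptgs1* and the thromboxane synthase gene *Tbxas1* were the genes of the pathway called as higher than control in all 3 nephritis groups. *Ptgs2* did not pass the test in any comparison. Other genes, such as *Lta4h* and *Cmklr1*, also had every nephritis library above both controls but were not called in all 3 groups. The 250 bases upstream of the start of *Alox5*, *Ptgs1*, *Tbxas1* and *Ptgs2* are shown. They set the promoters of the 3 genes called in all 3 groups beside that of a sister gene that was not called. They were taken from RefSeq annotation on GRCr8, which held a promoter for 8 of the 10 listed genes, whereas the authors' reads had been aligned to rn6. Each is written 5′ to 3′ on the strand of its gene, with capitals marking 3 motifs on either strand, namely the GC box with the letters GGGCGG, the core of a PU.1 site with the letters GAGGAA, and the box with the letters TATAAA that lies near the start of some genes, known as the TATA box.
*Alox5*, chr4:151251127-151251376, minus strand: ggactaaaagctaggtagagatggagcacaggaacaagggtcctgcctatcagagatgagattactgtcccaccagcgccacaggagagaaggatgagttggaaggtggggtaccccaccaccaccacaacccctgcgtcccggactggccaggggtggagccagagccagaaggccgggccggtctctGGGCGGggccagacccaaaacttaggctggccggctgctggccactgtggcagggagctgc
*Ptgs1*, chr3:39981169-39981418, plus strand: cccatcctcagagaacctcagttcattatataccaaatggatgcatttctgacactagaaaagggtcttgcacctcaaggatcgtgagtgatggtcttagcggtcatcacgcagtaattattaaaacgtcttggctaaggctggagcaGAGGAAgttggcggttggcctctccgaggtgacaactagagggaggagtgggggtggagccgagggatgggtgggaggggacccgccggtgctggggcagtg
*Tbxas1*, chr4:68631635-68631884, plus strand: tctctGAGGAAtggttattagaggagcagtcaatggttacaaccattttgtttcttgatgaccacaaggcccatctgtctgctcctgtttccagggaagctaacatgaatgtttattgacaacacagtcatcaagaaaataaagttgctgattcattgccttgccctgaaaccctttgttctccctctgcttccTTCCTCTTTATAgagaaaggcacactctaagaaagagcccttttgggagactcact
*Ptgs2*, chr13:64713813-64714062, plus strand: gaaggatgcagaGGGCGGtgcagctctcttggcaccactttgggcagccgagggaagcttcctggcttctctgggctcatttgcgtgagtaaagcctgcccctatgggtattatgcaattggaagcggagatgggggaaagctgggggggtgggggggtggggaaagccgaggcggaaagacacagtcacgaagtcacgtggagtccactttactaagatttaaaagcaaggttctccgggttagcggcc
The *Alox5* sequence had a GC content of 62.8% and held 1 GC box, as did the *Ptgs2* sequence (57.2% GC). The *Ptgs1* sequence (54.4% GC) held 1 PU.1 core, and the *Tbxas1* sequence (42.8% GC) held 2 PU.1 cores and 1 TATA box, which directly follows the second PU.1 core without overlapping it. Among 33469 promoters of this length, whose median GC content was 51.2%, 30.5% held a GC box, 23.3% a PU.1 core and 12.9% a TATA box. No motif was found in all 3 of the genes called in every nephritis group. Other motifs searched on both strands were a CRE half-site (TGACG, in 18.2% of all promoters), an E-box (CACGTG, 5.59%), an AP-1 site (TGANTCA, 6.34%) and an NF-kB site (6.33%). Of these, *Alox5* held 1 NF-kB match, *Tbxas1* 1 AP-1 match, *Ptgs2* 1 E-box, and none of the 4 a CRE half-site. These matches describe letters only.

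The deposited values are read counts scaled to library size by edgeR's TMM method (CPM), which were compared as log2(CPM + 1), so a log2 fold change understates that of a gene with few reads. Levels were not compared between genes, because transcript lengths were not used. The 10 libraries held between 19270515 and 26617093 reads and the level that 3 reads give, taken as the limit of detection, lay between 0.113 and 0.153 CPM, a limit that reflects counting error alone. Of 16 macrophage markers, 13 had values here. Their summed level lay between 26934 and 27503 CPM in control, 31346 and 32141 in GN, 30969 and 32733 in EV+ and 30533 and 31667 in EV- libraries. *Cd163* and *Mrc1*, which encode scavenger and mannose receptors used as M2 markers, stood between 0 and 1.81 CPM in all libraries. The 15 of 18 NK and T cell markers with values summed to between 1440.5 and 1652 CPM in the control, GN and EV+ libraries, and to 2276, 1672 and 1482.5 CPM in EV- replicates 1, 2 and 3, of which *Cd4*, which rat macrophages also express, made up between 1115 and 1345 CPM. For the neutrophil markers (8 of 12 with values) the sums were 549.8 to 556 CPM in control, 611 to 690.2 in GN, 701 to 719.8 in EV+ and 656 to 744.5 in EV- libraries. The sums for the B cell markers (6 of 10) lay between 320.2 and 464 CPM and for the dendritic cell markers (7 of 9) between 337 and 388 CPM. A single marker had values in each of the platelet (*Itgb3*, 225 to 320.3 CPM), mast cell and basophil (*Hdc*, 0 to 1.46 CPM) and eosinophil lists (*Siglec5*, 0.803 to 3.07 CPM).

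*Alox5* was higher in macrophages of nephritic rats than in control. It had 16.2 and 6.52 CPM in the control libraries, 59.8 and 38.5 in GN, 43.0, 36.9 and 48.8 in EV+, and 32.8, 22.2 and 36.1 in EV-. Every library of the 3 nephritis groups lay above both control libraries, and every EV- library lay below every GN and every EV+ library. The mean was 4.33-fold higher in GN than in control, with a log2 fold change of 2.11 (SE 0.321; limma, adjusted p = 0.00549). In EV+ and EV- macrophages the log2 fold change from control was 1.94 (SE 0.293; limma, adjusted p = 0.00240) and 1.43 (SE 0.293; limma, adjusted p = 0.0243). The order of the group means was control, EV-, EV+ and GN, at 11.3 ± 6.83, 30.3 ± 7.26, 42.9 ± 5.99 and 49.1 ± 15.1 CPM (SD, n = 2, 3, 3 and 2). The neighbours EV+ and GN overlapped, and neither they nor EV- and EV+ differed by the test. The neutrophil markers, of which *Csf3r* made up most, and the macrophage markers, of which *Lyz2* made up most, were likewise higher in sum in all nephritis libraries. The calprotectin gene *S100a8*, abundant in neutrophils, lay between 1.34 and 3.39 CPM throughout. Single markers did not all rise in GN against control. Of 8 neutrophil markers, 4 were higher and 4 lower, with 0 called. Of 13 macrophage markers, 10 were higher (2 called) and 3 lower (1 called, *Fcgr3a*, log2 fold change -0.55; limma, adjusted p = 0.01), where 1.75% of all genes were called. Of the 7 dendritic cell markers, whose sum was mostly *Cd1d1*, 6 had positive log2 fold changes in GN against control, with a median of 0.32, 3 at an unadjusted p under 0.05 (*Zbtb46*, *Batf3* and *Clec10a*) and 0 called by limma. The part of these markers in the rise of *Alox5* was not tested. The control libraries differed most from each other in relative terms, and without control replicate 1 or 2 the log2 fold change of GN was 2.7 and 1.51, both past the threshold. Without GN replicate 1 it was 1.80 (limma, adjusted p = 0.109), and without control replicate 2 that of EV- was 0.84 (limma, adjusted p = 0.304).

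*Alox5ap*, whose product presents arachidonic acid to 5-lipoxygenase, had nearly the same level in all groups. It stood at 294 and 307 CPM in control, 294 and 318 in GN, 338, 312 and 327 in EV+, and 334, 316 and 336 in EV- libraries. All EV+ and EV- libraries lay above both control libraries, by a small margin. The log2 fold change from control was 0.03 in GN (95% interval -0.14 to 0.20), 0.12 in EV+ (-0.04 to 0.27) and 0.13 in EV- (-0.02 to 0.29), with adjusted p by limma of 0.947, 0.484 and 0.488.

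*Lta4h* had 12.4 and 17.0 CPM in control, 23.2 and 32.7 in GN, 22.2, 21.7 and 31.2 in EV+, and 20.2, 28.0 and 30.7 in EV- libraries. Both control libraries lay below all others, which overlapped one another. Its log2 fold change from control was 0.88 in GN (SE 0.234; limma, adjusted p = 0.114), 0.73 in EV+ (SE 0.214; limma, adjusted p = 0.112) and 0.79 in EV- (SE 0.214; limma, adjusted p = 0.0916), so that only the last passed the threshold of 0.1. Over 22 settings the adjusted p in EV- lay between 0.0166 and 0.434, and leaving out control replicate 1 or 2, GN replicate 1 or 2, or EV- replicate 2 or 3 raised it above 0.1.

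*Ptgs1* rose in every group with nephritis, and its replicates were spread most widely in EV+. The control libraries had 30.7 and 28.4 CPM, the GN libraries 78.3 and 86.7, the EV+ libraries 80.8, 69.7 and 101.5, and the EV- libraries 78.5, 66.6 and 78.4. The control libraries were far below all others, and the 3 nephritis groups overlapped. The log2 fold change from control was 1.45 in GN (SE 0.151; limma, adjusted p = 0.000435), 1.46 in EV+ (SE 0.138; limma, adjusted p = 4.1e-05) and 1.30 in EV- (SE 0.138; limma, adjusted p = 0.000133). *Ptgs1* passed the threshold in these comparisons in all 22 settings tried. Platelets are known to express *Ptgs1* and *Tbxas1* strongly, and of the 10 platelet markers the single one with values, the integrin gene *Itgb3*, which macrophages also express, changed from control by a log2 fold change of 0.11 in GN, 0.26 in EV+ and 0.15 in EV-. Its part in these results was not tested.

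*Ptgs2*, the inducible cyclooxygenase gene, did not follow *Ptgs1*. It had 10.4 and 5.65 CPM in control, 4.61 and 7.04 in GN, 5.74, 8.25 and 4.10 in EV+, and 4.32, 3.98 and 4.82 in EV- libraries. The EV- libraries all lay below both control libraries, and the other groups overlapped. The log2 fold change from control was -0.37 in GN (95% interval -1.03 to 0.29), -0.35 in EV+ (-0.95 to 0.26) and -0.70 in EV- (-1.3 to -0.09), with adjusted p by limma of 0.758, 0.623 and 0.300. *Hpgds*, which encodes the hematopoietic synthase of prostaglandin D2, was near the limit of detection, with between 10 and 14 reads in each control and GN library. The EV+ libraries held 0, 9 and 1 reads of it and the EV- libraries 19, 3 and 28, and it did not pass the test in any comparison.

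**Figure D1:**
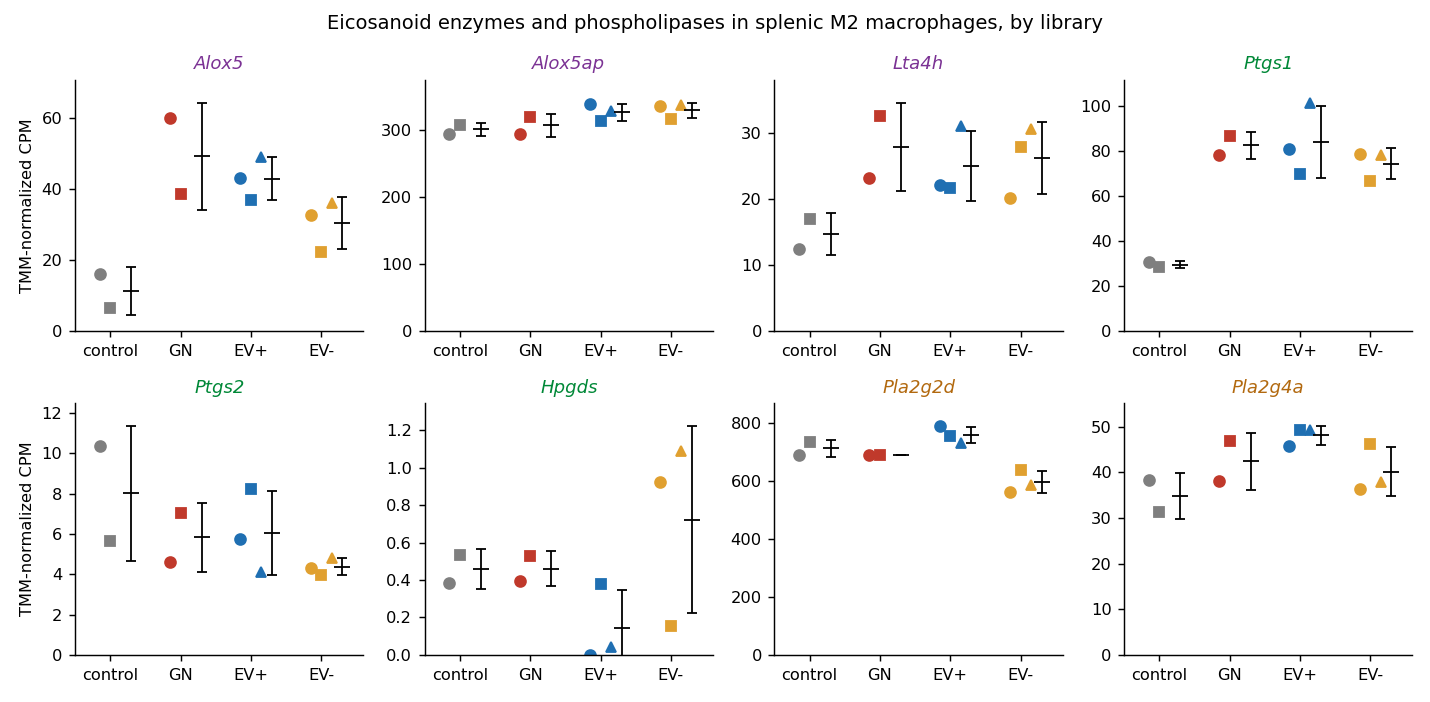
TMM-normalized CPM of the 8 genes in the 10 libraries (points; circles, squares and triangles are replicates 1, 2 and 3) with the mean ± SD of each group (black; the bar of *Hpgds* in EV+ is cut at 0). Every axis starts at 0, and titles are purple for leukotriene enzymes, green for prostaglandin enzymes and brown for phospholipases. *Alox5*, *Lta4h* and *Ptgs1* are lowest in both control libraries, and *Pla2g2d* is lowest in the 3 EV- libraries.

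In the fit across all genes, 2 of the 8 members were called between GN and control at an FDR under 0.1, where 1.75% of all genes were called (0.933% as higher). The same comparison called 2 members in EV+, where the share was 3.63% (1.82% as higher), and 3 in EV-, where it was 2.84% (1.29% as higher). All of these were higher than in control. The median log2 fold change of the 8 members was 0.15 in GN, 0.29 in EV+ and 0.20 in EV-, beside 0.00, 0.00 and 0.01 over all genes tested. These 3 comparisons share the control libraries. Among the 4 groups, *Alox5* (limma, adjusted p = 0.00629), *Ptgs1* (limma, adjusted p = 0.000124) and *Pla2g2d* (limma, adjusted p = 0.0466) were called, against 2.57% of all genes. From GN, 0 members were called by limma in EV+, where 0.122% of all genes were called, and none had an unadjusted p under 0.05. In EV- against GN, 0 were called, where the share was 0.378%, and 2 had an unadjusted p under 0.05, namely *Alox5* (log2 fold change -0.67, 95% interval -1.3 to -0.04) and *Pla2g2d* (-0.21, -0.37 to -0.06). Both tests of edgeR and DESeq2 on the recovered reads also called 0 members in either comparison with GN.

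**Figure D2:**
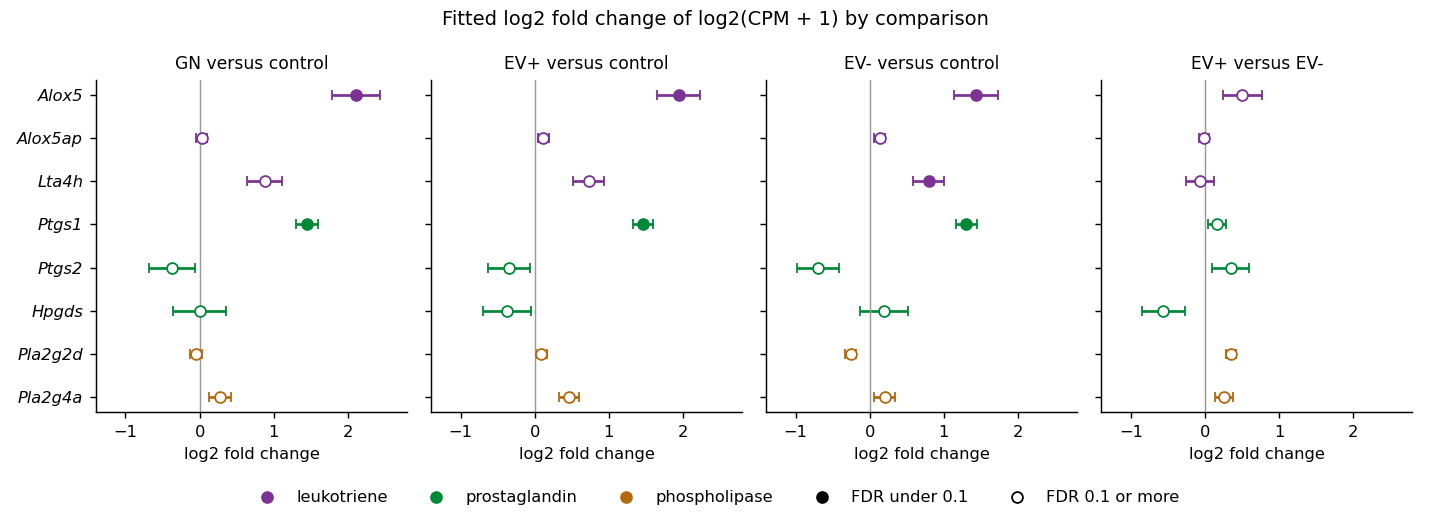
Fitted log2 fold changes of log2(CPM + 1) ± SE (limma) of the 8 genes in 4 comparisons. Filled points have an FDR under 0.1, open points do not, and colours give the branch of the pathway. *Alox5* and *Ptgs1* are filled in the 3 comparisons with control, *Lta4h* in EV- only, and no point is filled between EV+ and EV-.

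Set side by side, each branch held 1 member that rose strongly, *Alox5* and *Ptgs1*. The means below cover members only. They leave out *Tbxas1*, a gene of the prostanoid branch that also rose in GN (log2 fold change 1.33; limma, adjusted p = 0.00287). They keep *Hpgds*, which was near the limit of detection and could hardly move on this scale. Means with *Tbxas1* included were not computed. The mean log2(CPM + 1) of the 3 leukotriene enzymes stood at 5.23 ± 0.17, 6.24 ± 0.01, 6.16 ± 0.16 and 6.02 ± 0.16 in control, GN, EV+ and EV- libraries (SD, n = 2, 2, 3 and 3). That of the 3 prostaglandin enzymes was 2.87 ± 0.17, 3.23 ± 0.19, 3.11 ± 0.14 and 3.13 ± 0.23. All libraries with nephritis exceeded both controls in the leukotriene mean, whereas in the prostaglandin mean EV- replicate 2, at 2.87, lay below control replicate 1, at 2.99. The leukotriene mean thus changed from control by 1.0 in GN, 0.93 in EV+ and 0.79 in EV- on the log2 scale, and the prostaglandin mean by 0.36, 0.25 and 0.27. The difference between these changes was 0.64, 0.68 and 0.52, against a pooled SD between libraries of 0.20, and it carries no test because the genes were chosen with results of these data known. This difference rested on single genes. Without *Alox5* in the leukotriene branch it was 0.09 in GN, 0.17 in EV+ and 0.20 in EV-, and without *Ptgs2* in the prostaglandin branch it was 0.28, 0.38 and 0.04. Without *Ptgs1* in the prostaglandin branch it was 1.19, 1.29 and 1.04. Between the nephritis groups the changes of the branches differed by 0.04 in EV+ against GN, -0.12 in EV- against GN and 0.16 in EV+ against EV-. With each library left out in turn these values ranged from -0.10 to 0.19, from -0.26 to 0.01 and from 0.03 to 0.31. The median log2 fold change from control to GN was 0.88 over the leukotriene enzymes and 0.00 over the prostaglandin enzymes, beside 0.00 over all genes.

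**Figure D3:**
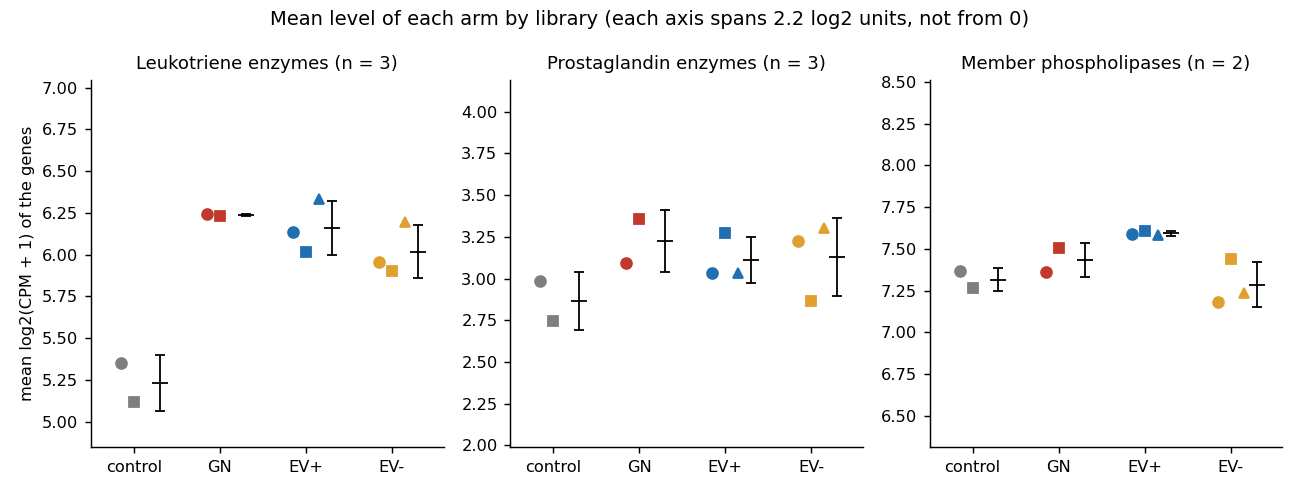
Mean log2(CPM + 1) per library over the 3 leukotriene enzymes, the 3 prostaglandin enzymes and the 2 phospholipases (points), with the mean ± SD of each group (black). The axes span the same range but do not start at 0. The leukotriene mean of both control libraries lies below all other libraries, and the phospholipase mean of every EV+ library lies above every EV- library.

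*Pla2g2d* encodes a secreted phospholipase A2 that is known from dendritic cells and macrophages of lymphoid organs. Its level was 691 and 733 CPM in control, 689.9 and 689.3 in GN, 788, 755 and 731 in EV+, and 563, 638 and 585 in EV- libraries. The EV- libraries were the lowest of all 10, the GN libraries lay just below both control libraries, and the EV+ libraries lay above both GN libraries and overlapped the control libraries. The order of the means was EV-, GN, control and EV+, at 595 ± 38.2, 689.6 ± 0.429, 712 ± 30.009 and 758 ± 29.0 CPM (SD, n = 3, 2, 2 and 3). Against control, its log2 fold change was -0.05 in GN (limma, adjusted p = 0.909), 0.09 in EV+ (limma, adjusted p = 0.616) and -0.26 in EV- (SE 0.0725; limma, adjusted p = 0.105).

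*Pla2g4a* encodes the cytosolic phospholipase A2 that is selective for arachidonic acid. It had 38.4 and 31.3 CPM in control, 38.1 and 46.9 in GN, 45.8, 49.3 and 49.3 in EV+, and 36.3, 46.3 and 37.9 in EV- libraries. The EV+ libraries lay above both control libraries, and all other pairs of groups overlapped. Its log2 fold change from control was 0.28 in GN, 0.46 in EV+ and 0.20 in EV- (limma, adjusted p = 0.568, 0.113 and 0.604).

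Between EV+ and EV- macrophages, *Pla2g2d* was the member with the smallest p. The mean was 1.27-fold higher in EV+, with a log2 fold change of 0.35 (SE 0.0648, 95% interval 0.21 to 0.49; limma, adjusted p = 0.177), and the 3 EV+ libraries all exceeded the 3 EV- libraries. The other phospholipase, *Pla2g4a*, differed by 0.26 (limma, adjusted p = 1.0), *Alox5* by 0.51 with no overlap of the groups (95% interval -0.06 to 1.07; limma, adjusted p = 1.0), and *Ptgs1* by 0.16 (-0.11 to 0.42). Limma called 0 of the 8 members, where 0.0222% of all genes were called, and 2 had an unadjusted p under 0.05. The quasi-likelihood test of edgeR also called 0 members, with 2 calls over all genes. Its likelihood-ratio test and DESeq2 called 1 member each, *Pla2g2d*. These 2 tests called more genes throughout, 57 and 34 over all genes, against 2 with limma. Same-numbered EV+ and EV- libraries deviated together, so the replicate number was also fitted as a block. With it, 0 members were called in the fit of all 10 libraries, where 0.0555% of all genes were called. When the 6 libraries of ASC-treated rats were fitted on their own with the block, 2 members were called against 0.544% of all genes, *Pla2g2d* (limma, adjusted p = 0.0131) and *Alox5* (limma, adjusted p = 0.0721), and both were higher in EV+ in each of the 3 pairs. *Tbxas1* was also called in that fit, at a log2 fold change of 0.45 (limma, adjusted p = 0.0252), against 0.607 with the block in all libraries and 0.937 without a block. *Ptgs1* and *Pla2g4a*, which were not called in it, were likewise higher in EV+ in each of the 3 pairs. The share of all genes with that pattern was not counted. Whether an EV+ and an EV- library of the same number came from the same animal is not given in the sources used here.

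**Figure D4:**
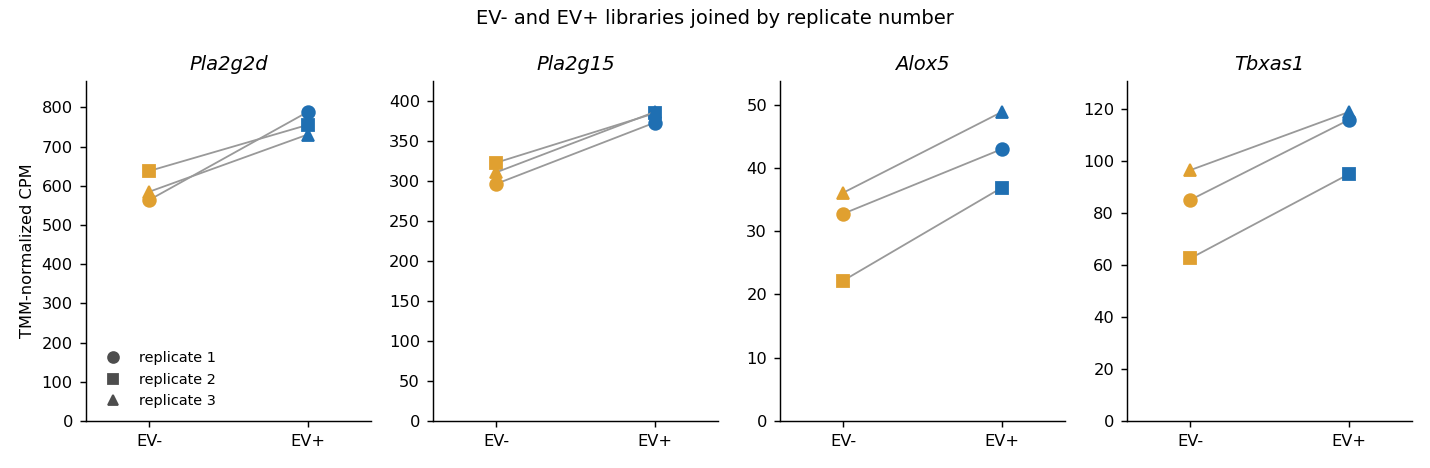
TMM-normalized CPM in the EV- and EV+ libraries, joined by replicate number, for 2 phospholipase genes, *Alox5* and *Tbxas1*. Axes start at 0. In all 4 genes the line rises from EV- to EV+ in each of the 3 pairs. *Ptgs1* and *Pla2g4a*, not shown, were also higher in EV+ in each pair.

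The EV- libraries also differed from the others in transcripts of NK and T cells. Of the 15 markers with values, 14 were lower in EV+ than in EV-, with a median log2 fold change of -1.39, although limma called 0 of them and 12 had an unadjusted p under 0.05. *Prf1*, the perforin gene of cytotoxic cells, reached 334.5 CPM in EV- replicate 1, against 51.4 in replicate 2 and 24.5 in replicate 3, and stood between 7.0 and 18.4 CPM in all other libraries. In bulk samples, fewer cells of a type and less RNA per cell cannot be told apart. Without EV- replicate 1, the library with the most NK and T cell transcripts, the difference between EV+ and EV- was 0.31 for *Pla2g2d* (limma, adjusted p = 0.562) and 0.57 for *Alox5* (limma, adjusted p = 1.0). The part of the NK and T cell, B cell and macrophage transcripts in the difference was not tested.

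Around the members, 46 other genes of the pathway on 5 lists had values. Between GN and control, 2 of them rose and 0 fell by limma's test, with 9 (19.6%) at an unadjusted p under 0.05, against 10.4% of all genes, and a median log2 fold change of -0.05. The shares of all genes called are those given above for the members. In EV+ 2 rose and 0 fell against control, and in EV- 1 rose and 0 fell. In the 3 comparisons between nephritis groups 0 were called, and 4 (8.7%), 4 (8.7%) and 2 (4.35%) had an unadjusted p under 0.05 in EV+ against GN, EV- against GN and EV+ against EV-, near the shares of 7.13%, 7.85% and 4.57% among all genes.

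*Tbxas1* encodes thromboxane synthase, which turns prostaglandin H2 into thromboxane A2, and was the 1 called gene of the 10 other prostanoid synthases and catabolic enzymes. It had 33.9 and 41.2 CPM in control, 104.9 and 87.5 in GN, 115.7, 94.8 and 118.7 in EV+, and 84.9, 62.4 and 96.3 in EV- libraries. Both control libraries lay below all others, as for *Ptgs1*, which makes its substrate. The log2 fold change from control was 1.33 in GN (SE 0.178; limma, adjusted p = 0.00287), 1.52 in EV+ (SE 0.163; limma, adjusted p = 0.000121) and 1.08 in EV- (SE 0.163; limma, adjusted p = 0.00316), and these calls held in all 22 settings. The remaining genes of this list, which include those of the other prostaglandin E synthases *Ptges2* and *Ptges3*, had log2 fold changes between -0.27 and 0.40 in GN.

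*Cmklr1*, which encodes a receptor for chemerin that has also been described as a receptor for the lipid mediator resolvin E1, was the called gene of the 6 receptors with values. It had 4.35 and 4.50 CPM in control, 18.7 and 11.5 in GN, 17.2, 8.97 and 13.3 in EV+, and 11.3, 5.96 and 13.2 in EV- libraries. All libraries with nephritis exceeded both controls, though EV- replicate 2 did so by little. The log2 fold change from control was 1.53 in GN (SE 0.335; limma, adjusted p = 0.0452), 1.34 in EV+ (SE 0.306; limma, adjusted p = 0.0357) and 0.98 in EV- (SE 0.306; limma, adjusted p = 0.154). Leaving out either control or either GN library removed the call in GN, with adjusted p by limma between 0.107 and 0.373, and leaving out either control library or EV+ replicate 3 removed the one in EV+, with adjusted p between 0.127 and 0.215. None of the other receptors was called. *Cysltr1*, the receptor for cysteinyl leukotrienes, had 1.12 and 0.412 CPM in control and between 1.64 and 3.43 CPM in the other libraries, without overlap (GN against control, log2 fold change 1.13; limma, adjusted p = 0.121). *Ptger4*, a receptor for prostaglandin E2, had 139 and 116 CPM in control and between 78.0 and 107 CPM in the other libraries (-0.34; limma, adjusted p = 0.393). *Ptger1* and *Ptger2* changed by -0.48 and 0.16 in GN (limma, adjusted p = 0.577 and 0.935). *Ptgir* had 50.9 to 63.9 CPM in control, 51.3 and 55.9 in GN and 67.1 to 77.1 in EV+ and EV- libraries (EV+ against GN, 0.39; limma, adjusted p = 0.437).

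None of the 10 other phospholipase and arachidonate release genes, the 9 genes that return arachidonic acid to phospholipids or the 11 genes of other lipoxygenases, leukotriene conversion and epoxide hydrolases was called by limma in any of the 6 pairwise comparisons. Their median log2 fold changes between GN and control were -0.05, 0.00 and -0.12. With an unadjusted p under 0.05, these lists held 2, 1 and 2 genes in GN against control.

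**Figure D5:**
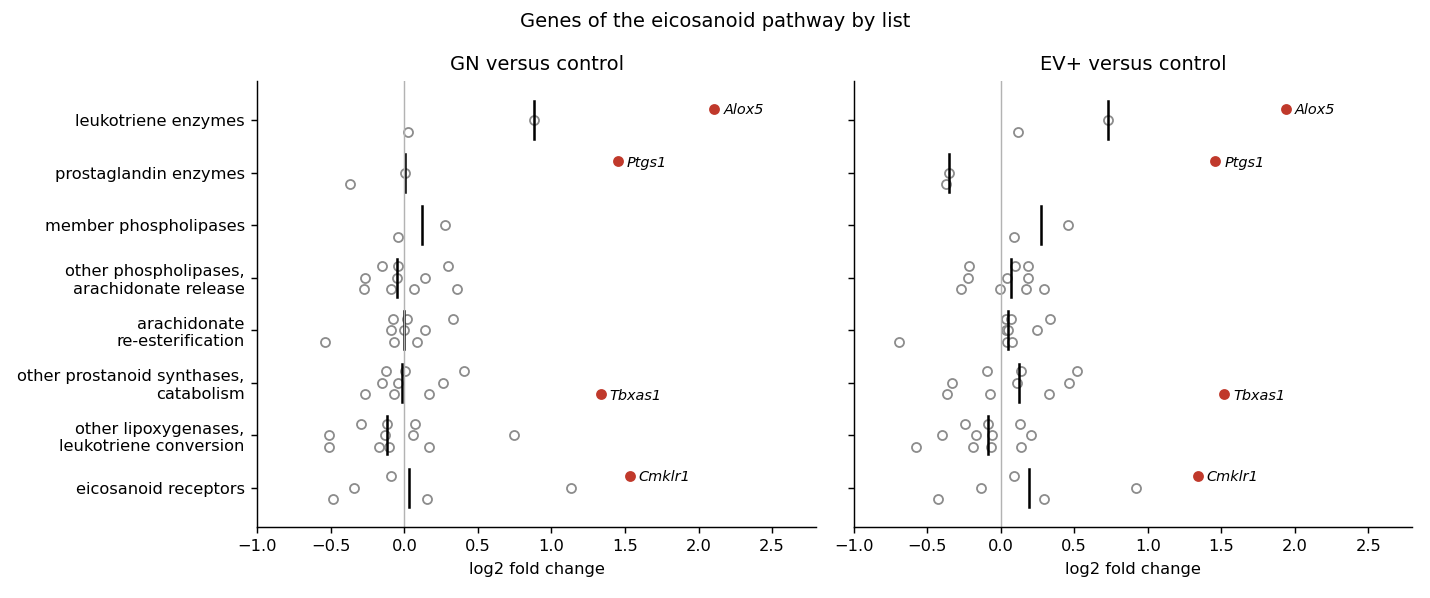
Log2 fold changes (limma) of the genes of the pathway with values, by list, between GN and control and between EV+ and control (points), with the median of each list (black bars). Filled red points have an FDR under 0.1, and points of a list are spread vertically to show them. The named genes *Alox5*, *Ptgs1*, *Tbxas1* and *Cmklr1* are the called ones, all at positive values, while the medians of the 5 lists of other genes lie between -0.12 and 0.19.

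The genes whose pattern was most like that of each called member were sought over the 10 libraries among 7193 genes with a mean of at least 5 CPM. These correlations are descriptive, since the libraries share groups that differ for many genes. For *Alox5*, the highest were *Ifi30* (r = 0.96), which encodes a lysosomal thiol reductase of antigen processing, *Ccbl1* (r = 0.94) and *Cst7* (r = 0.94), which encodes a cystatin that inhibits cathepsins. For *Ptgs1*, they were *Capg* (r = 0.99), which encodes an actin-capping protein of macrophages, the annexin gene *Anxa3* (r = 0.98) and the galactokinase gene *Galk1* (r = 0.98). For *Lta4h*, they were *Zbtb42* (r = 0.95), *Slc5a6* (r = 0.94), which encodes a vitamin transporter, and *Spryd4* (r = 0.89). *Alox5* and *Ptgs1* themselves correlated with r = 0.90 and *Lta4h* with *Ptgs1* at 0.82, while *Ptgs1* and *Ptgs2* had r = -0.51.

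For *Pla2g2d*, the most like were *Paip1* (r = 0.94), *Cd320* (r = 0.92) and another phospholipase gene, *Pla2g15* (r = 0.89), which encodes the lysosomal phospholipase A2. *Pla2g15* had 319 and 352 CPM in control, 359 and 344 in GN, 373, 384 and 386 in EV+, and 296, 323 and 311 in EV- libraries. As for *Pla2g2d*, all EV+ libraries lay above and all EV- libraries below both GN libraries. It was higher in EV+ than in EV- by 0.30 on the log2 scale (SE 0.0648; limma, adjusted p = 0.309), with an adjusted p by limma of 0.0178 with the replicate block in the 6 libraries and 0.258 with the block in all 10.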

How the data were processed

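Splenic M2 macrophages were sequenced in 10 libraries of 4 groups taken from the sample labels. The authors aligned paired-end reads (SMART-Seq v4, Nextera XT) to rn6 with STAR (version 2.5.3), counted reads on RefSeq genes with HTSeq (version 0.6.0, intersection-strict), removed genes with a maximum under 1 CPM and applied TMM normalization in edgeR. The deposited signal is this TMM-normalized CPM of 9003 genes. Divided by what 1 read contributes in its library, 100% of the values came out whole at a tolerance of 0.01, and these reads were used for count tests. No column was left out, 18 symbols had been turned into dates, and raw reads were not used here.

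The members and gene lists were chosen with earlier results of these data known. Values were compared as log2(CPM + 1) with limma (version 3.58.1, R version 4.3.3), in 1 fit of 4 group means with an intensity trend and 6 residual degrees of freedom, and called at a Benjamini-Hochberg FDR under 0.1 over all genes. Intervals are 95%. Named genes are the members, the called genes of the pathway lists, markers that move beside a member, and the 3 genes of highest Pearson correlation with each called member. Replicates differed by 13.4 to 45.4 chi-square per degree of freedom, so none was a copy. After each group's mean was subtracted, EV+ and EV- libraries numbered 1, 2 and 3 correlated with r = 0.203, 0.295 and 0.122 across genes, and those of different numbers with -0.229 to -0.0129. Every pair exceeded 0.1, so the number was taken as pairing these libraries, from the data and not the labels. Because deviations cancel within each group, the negative values partly follow from the positive ones. The block was fitted to the same libraries that led to its choice, so its p-values are not independent of that choice. Same-numbered control and GN libraries came from different animals and were not taken as paired. With 2 libraries per group the deviations mirror each other, so their r of 0.0878 is a single value shared by both pairs. Alternatives were edgeR (version 4.0.16) and DESeq2 (version 1.42.0) on recovered reads, other pseudocounts, scalings, filters and thresholds, the replicate block and leaving out each library. The procedure was tested on simulated data with independent libraries and changes in GN only. The fits with the replicate block were not tested in this way.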

Additional observations from a re-analysis of the deposited data

Results flagged for a closer look

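*Pla2g2d* and *Pla2g15* stood out, although neither was called in EV+ or EV- against GN. All their EV+ libraries lay above and all their EV- libraries below both GN libraries. This pattern was sought only among the members, the called genes of the pathway and *Pla2g15*. *Pla2g15* was included because its levels over these libraries were among those most like *Pla2g2d* (r = 0.89), so its sharing the pattern is no separate support. The share of all genes with this pattern was not counted. *Pla2g2d* was higher in EV+ than in EV- by 0.35 on the log2 scale (limma, adjusted p = 0.177, and 0.0131 with the replicate block in the 6 libraries). For *Pla2g15* this difference was 0.30 (limma, adjusted p = 0.309, and 0.0178 with that block). The comparisons of EV+ and EV- with GN share the 2 GN libraries, and without EV- replicate 1 these differences were 0.31 and 0.27, with adjusted p by limma of 0.562 and 0.779. Against GN, the log2 fold change of *Pla2g2d* was 0.14 in EV+ (limma, adjusted p = 0.785) and -0.21 in EV- (limma, adjusted p = 0.423). Its 2 GN libraries were nearly equal, at 689.9 and 689.3 CPM, and its control libraries overlapped EV+.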

How the results depend on the processing

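Single-gene values were recomputed only for comparisons that were called, had an unadjusted p under 0.05 or were called with the replicate block. None of these values changed direction under any alternative, which that choice made likely from the start. Of them, 518 values kept their side of the threshold, 33 passed it only under the alternative and 21 lost it. Among the counts of members called, edgeR's likelihood-ratio test and DESeq2 gave 1 between EV+ and EV- and 4 between EV+ and control, where library totals without TMM also gave 4. Between EV+ and control these 3 settings called 516, 540 and 373 genes over the whole table, against 327 in the main fit. The replicate block in the 6 EV+ and EV- libraries gave 2 between EV+ and EV-, and the block in all libraries moved no count by over 1.5 times. That fit also ties control and GN libraries that share only a number. In it *Lta4h* passed the threshold in GN (adjusted p = 0.0141) and EV+ (0.0722) and *Cmklr1* in EV- (0.0997), all against control, and no other member, nor *Tbxas1* or *Pla2g15*, gained or lost a call in the pairwise comparisons. Limma without the intensity trend gave 1 between EV- and control and 1 among the 4 groups. With single libraries left out, the count was 1 to 3 between GN and control (1 without GN replicate 1) and 1 to 4 between EV- and control (1 without control replicate 2). The difference between the changes of the leukotriene and prostaglandin means depended on how the branches were summarised. With the median of each branch it was 1.85 in GN, 1.66 in EV+ and 1.61 in EV- against control, and -0.19 between EV+ and GN. Without *Ptgs2* it was 0.279, 0.383 and 0.0386 against control. A pseudocount of 0.1 gave 1.12 between EV+ and control, 0.426 between EV+ and GN and 0.567 between EV+ and EV-. Without *Hpgds*, an alternative chosen after seeing the data, it was 0.372 between EV+ and control and -0.111 between EV+ and EV-. Without *Alox5*, chosen likewise, it was 0.0928 in GN, 0.174 in EV+ and 0.196 in EV- against control and 0.103 between EV- and GN, and without *Ptgs1* it was 1.19, 1.29 and 1.04 against control. The cause was not tested. Over the table, calls between GN and control ranged from 34 without GN replicate 1 to 294 with DESeq2, against 158, and between EV+ and EV- the likelihood-ratio test called 57 genes, DESeq2 34 and the block in 6 libraries 49, against 2, and 0 were called without the trend or without EV+ replicate 1. Against control, the calls ranged from 114 to 540 in EV+ (327 as reported) and from 94 to 474 in EV- (256), and among the 4 groups from 93 to 616 (231). Between EV+ and GN they ranged from 0, without GN replicate 2 or without the trend, to 43 with the likelihood-ratio test, against 11 (2 without GN replicate 1), and between EV- and GN from 6 without the trend to 126 with the likelihood-ratio test, against 34 (7 without GN replicate 1).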
